A study of Mus musculus with 3 samples.

Results

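The galectin genes and the gene of a galectin-binding glycoprotein were described in 4T1 cells made to over-express WISP2. The members were 9 gene symbols fixed by name (Lgals1, Lgals2, Lgals3, Lgals4, Lgals7, Lgals8, Lgals9, Lgals12 and Lgals3bp), and all 9 were found among the 34591 symbols of the count table. 4T1 is an established mouse mammary carcinoma line, and WISP2, a member of the CCN family, is secreted into the matrix. The single group, labelled WISP2 OE, held 3 poly(A) RNA libraries, called C1, C2 and C3 here. The treatment protocol in the labels describes viral transduction and puromycin selection of stable lines, but for Wisp1 constructs; the sources used here do not give whether the WISP2 line was a clone or a pool. The empty-vector 4T1 libraries named in the design text were not analysed here, so the values are levels in over-expressing cells and not effects of WISP2. The sources do not say that the libraries came from separate cultures, so spreads and p-values below describe these samples and may hold technical variation only.

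C1 totalled 17630755 counts, C2 67028365 and C3 47577315. Levels are given as CPM, the counts of a gene per 1000000 counts of its library, and Wisp2 itself stood at 429, 384 and 454 CPM. All 5 epithelial markers fixed for 4T1 (Krt8, Krt18, Krt7, Cdh1 and Epcam) reached 1 CPM in every library, beside 33.8% of all symbols. Of the 9 myeloid and leukocyte markers Lyz2 (5.44 ± 3.46 CPM) and Cd68 (4.99 ± 0.660 CPM) did so too, and Cd3e was the only marker of that list at 0 counts.

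Galectins are small lectins that bind beta-galactoside sugars on glycoproteins and glycolipids. They are made without a signal peptide, act both inside cells and after export by a non-classical route, and cross-link surface glycoproteins into lattices. The prototype galectins (Lgals1, Lgals2, Lgals7) carry a single carbohydrate-recognition domain and can form dimers, the chimera galectin Lgals3 joins such a domain to a collagen-like tail through which it oligomerises, and the tandem-repeat galectins (Lgals4, Lgals8, Lgals9, Lgals12) carry a pair of domains on 1 chain. In mammary and other tumours galectins are studied for cell adhesion, angiogenesis and the restraint of T cells.

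Promoter sequence is shown for Lgals9, Lgals3 and Lgals2. Among the expressed members, the libraries of Lgals9 spread most. Lgals3 was the highest expressed member matched in RefSeq. Lgals2 was almost silent, although Lgals4 and Lgals7, also matched, stood lower. RefSeq (GRCm38.p6) gave a promoter window for 7 of the 9 members, not for Lgals1 and Lgals12. Each window covers the 250 bases before the annotated start, and the printed stretch ends where GENCODE M21 annotates an exon. Capitals mark CG dinucleotides in Lgals2 and Lgals3, and in Lgals9 the single match to a core of the interferon-stimulated response element, GAAA followed after any 2 bases by GAAA, which lies on the other strand. The stretches lie at chr11:78984947-78985174 (Lgals9, minus strand), chr14:47373610-47373812 (Lgals3, plus strand) and chr15:78855530-78855779 (Lgals2, minus strand).
Lgals9: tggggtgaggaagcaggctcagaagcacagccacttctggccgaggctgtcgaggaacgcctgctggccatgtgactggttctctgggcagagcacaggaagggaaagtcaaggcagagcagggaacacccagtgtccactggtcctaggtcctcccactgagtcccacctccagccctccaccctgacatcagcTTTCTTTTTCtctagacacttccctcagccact
Lgals3: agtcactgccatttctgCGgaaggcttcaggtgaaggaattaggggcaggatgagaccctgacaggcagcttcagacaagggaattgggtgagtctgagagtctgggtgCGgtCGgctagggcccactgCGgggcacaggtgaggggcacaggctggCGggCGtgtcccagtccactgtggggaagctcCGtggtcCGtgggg
Lgals2: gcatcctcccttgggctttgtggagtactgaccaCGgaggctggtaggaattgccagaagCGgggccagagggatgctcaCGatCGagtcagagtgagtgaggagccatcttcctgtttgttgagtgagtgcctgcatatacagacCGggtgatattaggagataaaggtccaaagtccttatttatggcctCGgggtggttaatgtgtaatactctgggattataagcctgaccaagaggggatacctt
The printed Lgals3 stretch of 203 bases held 8 CG dinucleotides and the Lgals2 stretch of 250 bases held 6. Over the full 250 bases, Lgals3 held 13, Lgals2 6, Lgals7 5, Lgals8 4, Lgals9 3, and Lgals3bp and Lgals4 2 each, beside a median of 6 over all 32851 windows. The count of CG dinucleotides thus did not separate the expressed members (Lgals3, Lgals8, Lgals9, Lgals3bp) from the near-silent ones (Lgals2, Lgals4, Lgals7). Searched on both strands, that motif matched the Lgals9 window alone of the 7, and 2.98% of all windows. GGGCGG, the core of the GC box, matched those of Lgals3 and Lgals7, and 32.7% of all windows. TATAAA matched none of the 7 and 12.4% of all windows. These matches describe the letters of the windows and are neither sites nor causes.

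The family fell into expressed and near-silent members with a wide gap between them. Of the 9 members 5 (Lgals1, Lgals3, Lgals8, Lgals9 and Lgals3bp) reached 1 CPM in every library, beside 33.8% of all symbols in the table, and the other 4 stayed below 0.4 CPM in each library. The median over all 9 members was 18.8 CPM, beside 0.00995 CPM over all 34591 symbols, of which 15794 had 0 counts. The 11700 genes that reached 1 CPM in every library are called the detected genes here, and their median was 35.9 CPM. The 8 galectins together took 0.533% of all counts in C1 (95% exact binomial interval 0.529 to 0.536), 0.534% in C2 (0.533 to 0.536) and 0.567% in C3 (0.565 to 0.569). These intervals, here and below, hold counting error alone. No molecular identifiers are described that would mark PCR copies, so the intervals may be too narrow even for that error.

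**Figure D1:**
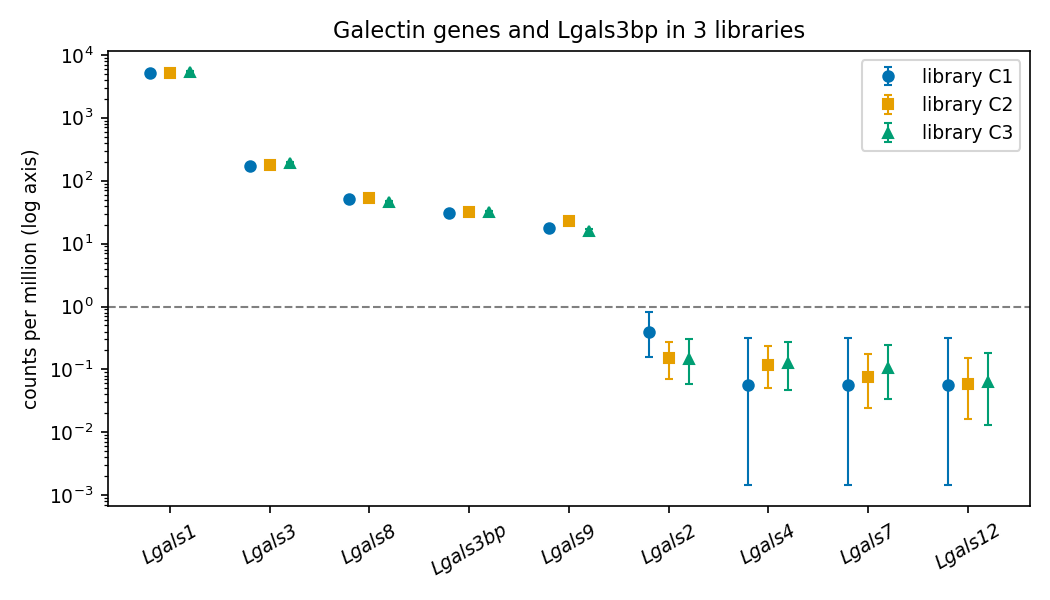
Level of each member in each library, in CPM on a log axis that is not corrected for transcript length; points are libraries C1 to C3, bars are exact 95% binomial intervals, and the dashed line marks 1 CPM. Lgals1 stood between 5084 and 5416 CPM, 4 further members stood between 16.0 and 192 CPM, and Lgals2, Lgals4, Lgals7 and Lgals12 stood below the line.

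Among the prototype galectins, Lgals1 dominated. Its product, galectin-1, is a homodimer studied in tumours for T cell death and for vessel growth. Lgals1 stood at 5084 (C1), 5087 (C2) and 5416 CPM (C3), a mean of 5196 ± 191 CPM (SD, n = 3). C1 and C2 were nearly alike and C3 lay above both, with counting intervals that did not overlap those of the other libraries. Only 2 genes of the table had a higher mean CPM. Divided by the exon length of GENCODE M21, Lgals1 stood at 5754 ± 211 CPM per kilobase (SD, n = 3), above every other symbol with a length, and Eef1a1 followed at 4833 ± 99.96. With the longest transcript as length the order of these genes turned, with Eef1a1 at 6716 and Lgals1 at 6495 CPM per kilobase. Lgals1 has processed pseudogenes, whose counts are not given here. For reads that match several genes, the authors' rule of counting is not given in the sources used here, and the Lgals1 level is uncertain to that extent.

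The other prototype galectins were barely detected. Lgals2, known from the gut epithelium, had 7, 10 and 7 counts in C1, C2 and C3, which is 0.397, 0.149 and 0.147 CPM. The value in C1 was the highest, but its interval (0.160 to 0.818 CPM) overlapped those of C2 (0.0715 to 0.274) and C3 (0.0592 to 0.303). Lgals7, a galectin of stratified epithelia that is also a p53-induced gene, had 1, 5 and 5 counts (0.0567, 0.0746 and 0.105 CPM), with overlapping intervals. Lgals1 and Lgals2 lie close together on chromosome 15, with the protein-coding genes Gga1, Sh3bp1 and Pdxp between them in the RefSeq order. Those 3 genes stood at 37.1 ± 1.75, 17.8 ± 1.03 and 3.94 ± 0.498 CPM per kilobase (SD, n = 3), above Lgals2 at 0.390 ± 0.243. Per exon length, the log2 ratio of Lgals1 to Lgals2 within libraries was 12.94 in C1, 14.38 in C2 and 14.46 in C3, a mean of 13.92 ± 0.86 or 15547-fold.

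The chimera galectin Lgals3, known in macrophages as Mac-2 and studied in tumour cells for adhesion and for the lattice on branched N-glycans, was the next in level. It stood at 174 (C1), 179.7 (C2) and 192 CPM (C3) (181.9 ± 9.46 CPM, SD, n = 3), above 90.0% of the detected genes. C3 was the highest, and its interval (188 to 196 CPM) did not overlap those of C1 (168 to 180.0) and C2 (177 to 183). Within libraries, Lgals1 exceeded Lgals3 per exon length by 5.91, 5.86 and 5.86 on the log2 scale, a mean of 5.88 ± 0.03 or 58.8-fold. That ratio was the steadiest of the ratios between the 5 expressed members, although both genes differed between libraries. Both were highest in C3.

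Of the tandem-repeat galectins, Lgals8 and Lgals9 were expressed and Lgals4 and Lgals12 were near the floor. Lgals8, whose product binds glycans exposed on damaged vesicles and integrins at the surface, stood at 51.4 (C1), 52.5 (C2) and 46.0 CPM (C3) (49.9 ± 3.47 CPM, SD, n = 3). C3 was the lowest and its interval (44.1 to 48.0 CPM) lay just below that of C1 (48.1 to 54.8). Lgals9, whose product is a ligand of the T cell receptor Tim-3 and draws eosinophils, stood at 17.9 (C1), 22.5 (C2) and 16.0 CPM (C3) (18.8 ± 3.32 CPM, SD, n = 3). Only C2 stood apart, with an interval (21.4 to 23.6 CPM) above those of C1 (15.9 to 20.0) and C3 (14.9 to 17.2), which overlapped. The highest library was 1.40-fold above the lowest for Lgals9 and 1.14-fold for Lgals8.

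Lgals4, a galectin of gut epithelium that binds sulfated glycolipids, had 1, 8 and 6 counts (0.0567, 0.119 and 0.126 CPM). Lgals12, a galectin of adipocyte lipid droplets, had 1, 4 and 3 counts (0.0567, 0.0597 and 0.0631 CPM). For both genes the intervals of all libraries overlapped. Lgals4 and Lgals7 are direct neighbours on chromosome 7 in the RefSeq order, with 0 genes between them, and both were low. The limit that a count of 0 allows (3 counts) was 0.170 (C1), 0.0448 (C2) and 0.0631 CPM (C3), so in C1 the values of Lgals4, Lgals7 and Lgals12 were below that limit.

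Lgals3bp encodes a secreted scavenger-receptor glycoprotein that carries galectin ligands and binds galectin-3. It stood at 30.5 (C1), 31.6 (C2) and 31.4 CPM (C3) (31.2 ± 0.587 CPM, SD, n = 3). The intervals of the 3 libraries overlapped. Per exon length, Lgals3 exceeded Lgals3bp by 3.12, 3.12 and 3.23 on the log2 scale (3.16 ± 0.06, or 8.93-fold).

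Ordered by CPM per kilobase of exon, the members ran from Lgals1 (5754) through Lgals3 (97.9), Lgals8 (13.5), Lgals3bp (11.0), Lgals9 (8.80), Lgals2 (0.390), Lgals7 (0.0850) and Lgals4 (0.0435) to Lgals12 (0.0216). Of the 8 pairs of neighbours in that order, 5 differed beyond their spread, taken as a mean log2 ratio over 2 SD with the same sign in all libraries. Lgals3 exceeded Lgals8 by 2.85 ± 0.17 (7.23-fold) and Lgals9 exceeded Lgals2 by 4.56 ± 0.91 (23.6-fold). Lgals8 exceeded Lgals3bp by only 0.30 ± 0.11 (1.23-fold), which was no longer beyond the spread without C2 (0.28 ± 0.14). Lgals3bp and Lgals9 did not differ beyond their spread (0.33 ± 0.24 on the log2 scale), but did without C2 (0.46 ± 0.14) and without length division (0.74 ± 0.24). Lgals2 and Lgals7 did not (1.88 ± 0.97), but did without C1 (1.34 ± 0.34), without C3 (2.27 ± 0.98) and with 1 count added (1.74 ± 0.82). Lgals4 and Lgals12 did not (0.86 ± 0.52), but did without C1 (1.17 ± 0.02) and with the longest transcript as length (1.60 ± 0.52). Lgals7 exceeded Lgals4 by 1.03 ± 0.32, which was not beyond the spread with the longest transcript (0.59 ± 0.32) and turned to -0.29 ± 0.32 without length division. The ratio of their summed counts per length, 1.83, had a counting interval from 0.761 to 4.27. No p is given for these ratios, since with 3 libraries the smallest p of an exact two-sided test by sign flips is 0.25.

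Per exon length, Lgals1 made up 97.9% ± 0.0527 (SD, n = 3) of the 8 galectins. Lgals3 made up 1.67% ± 0.0340, Lgals8 0.231% ± 0.0239 and Lgals9 0.1503% ± 0.0304. The share of Lgals1 was 98.0% in C1, 97.9% in C2 and 98.0% in C3. The share of Lgals9 was 0.145%, 0.183% and 0.123% in the same libraries, highest in C2. Without Lgals1, the other 7 galectins summed to 244, 255 and 255 CPM.

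**Figure D2:**
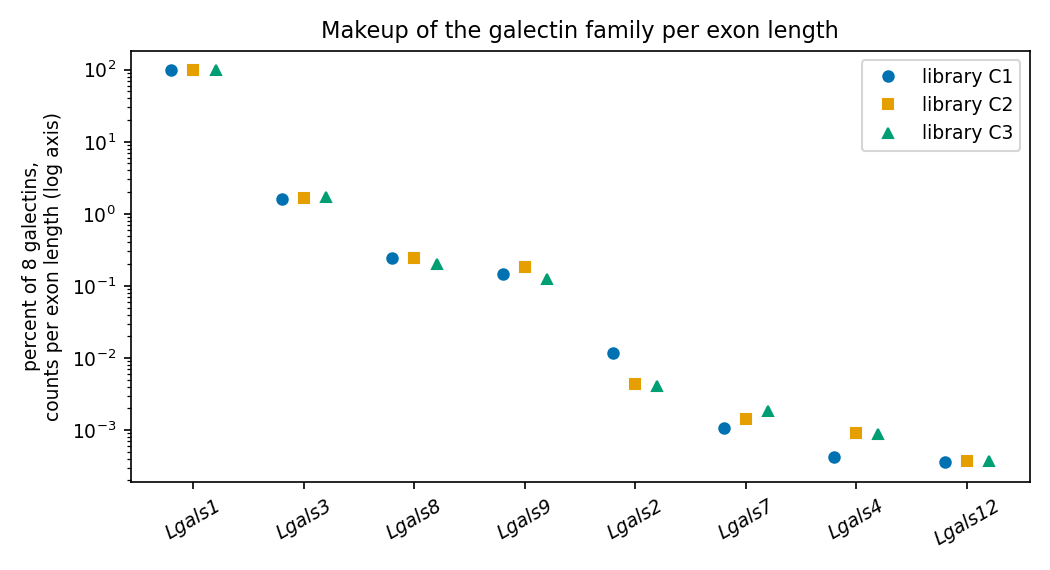
Share of each galectin in the summed counts per exon length of the 8 galectins, in percent on a log axis; points are libraries C1 to C3. Lgals1 took 97.9% on average, Lgals3 1.67%, and the 4 near-silent galectins less than 0.02% in each library.

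The 5 expressed members passed the filter on low counts and could be tested for spread between libraries; Lgals2, Lgals4, Lgals7 and Lgals12 did not pass. Against counting noise (Poisson dispersion test, Benjamini-Hochberg adjustment over 13026 genes), 4 of the 5 were called, beside 39.3% of all genes tested. The adjusted p was 2.5e-152 for Lgals1, 1.07e-12 for Lgals9, 7.46e-08 for Lgals3 and 6.94e-05 for Lgals8. Lgals3bp was not called (adjusted p = 0.833). The test gains power with counts, and Lgals1 had 688313 summed counts against 2585 for Lgals9, so the size of these p-values does not rank the spread. The coefficient of variation was 3.67% for Lgals1, 5.20% for Lgals3, 6.95% for Lgals8, 17.7% for Lgals9 and 1.88% for Lgals3bp.

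The calls rested on different libraries. Without C3, 1 of the 5 members was called in the Poisson test, beside 1667 of all 12970 genes tested. Lgals9 kept its call (adjusted p = 0.00362), while Lgals1 (0.994), Lgals3 (0.315) and Lgals8 (0.810) lost theirs. Without C2, Lgals9 lost its call in that test (adjusted p = 0.330), and 1761 of all 12774 genes were called. Without C1 the same 4 members were called, beside 4908 of all 13337 genes. Calls fell over all genes without C3 or C2, so the lost calls are not particular to the members. Lgals1 and Lgals3 were highest in C3, Lgals8 was lowest in C3 and Lgals9 was highest in C2.

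Against genes of similar level, 0 of the 5 members were called in the edgeR quasi-likelihood F test of spread, beside 0.0691% of all genes tested. Only 1 of them, Lgals9, had an unadjusted p under 0.05 in the edgeR test, beside 671 of all 13026 genes tested. Its adjusted p in that test was 0.674, and its dispersion was 7.60 times the trend. Over all alternatives the adjusted p of Lgals9 in the edgeR test ran from 0.0716, without a filter beyond 1 count, where 171 genes were called in place of 9, to 0.997 without C2. The dispersion of Lgals8 was 2.01 times the trend, that of Lgals3 1.81 times, that of Lgals1 0.889 times and that of Lgals3bp 0.109 times. In bulk RNA, more cells that express a gene and more RNA per cell cannot be told apart.

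**Figure D3:**
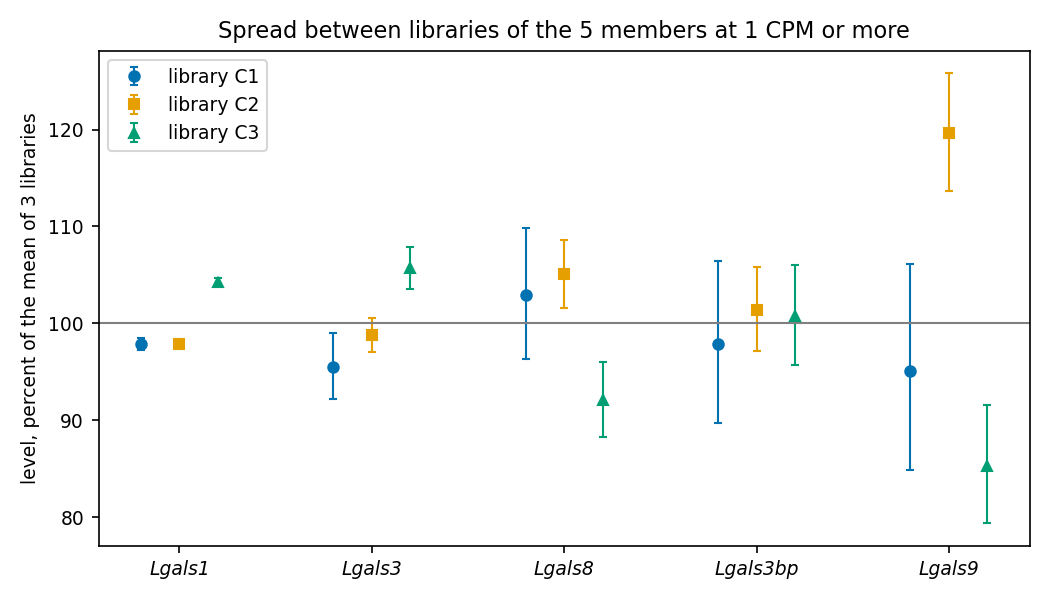
Level of the 5 expressed members in each library, as a percent of the mean of the 3 libraries (the axis does not start at 0); points are libraries C1 to C3 and bars are exact 95% binomial intervals. Lgals9 in C2 (22.5 CPM against a mean of 18.8) lay farthest from its mean, Lgals1 and Lgals3 were highest in C3, and Lgals3bp hardly moved.

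The marker lists moved between libraries as follows. The epithelial markers summed to 3430, 3461 and 3736 CPM in C1, C2 and C3; all 5 varied beyond counting noise, beside 39.3% of all genes tested. Of them 4 were highest in C3, as Lgals1 and Lgals3 were, beside 4434 of all 13026 genes tested. None of the 5 passed the edgeR test, beside 0.0691% of all genes tested. Their median was 945 CPM, beside 35.9 CPM over the detected genes, and the test against counting noise gains power with counts. Their part in the C3 values of the galectins was not tested. The 9 myeloid and leukocyte markers, of interest because macrophages express Lgals3 and Lgals9, summed to 20.1, 9.83 and 10.2 CPM, led by the lysozyme Lyz2 and by Cd68. Of the 4 tested, Lyz2, Emr1 and Csf1r varied beyond counting noise, beside 39.3% of all genes tested. All 4 were highest in C1, beside 4025 of all 13026 genes tested. None of the 4 passed the edgeR test, beside 0.0691% of all genes tested. Among the 5 expressed galectin members, Lgals1, Lgals3 and Lgals3bp were lowest in C1, but for each the interval in C1 overlapped that in C2. The part of these markers in the galectin values was not tested. Of the 7 stratified epithelium markers, Krt14 (64.5 ± 2.65 CPM) and Krt10 (2.41 ± 0.159 CPM) reached 1 CPM in every library and Krt5, Krt1 and Ivl had 0 counts, beside the low Lgals7. All adipocyte markers (Plin1, Lep and Cidec at 0 counts, Adipoq 0.0189 and Fabp4 0.0260 CPM on average) and all 5 intestinal markers in the table (Cdx1, Cdx2 and Fabp2 at 0 counts, Vil1 0.0199 and Krt20 0.00995 CPM) were near or at 0, beside the low Lgals12, Lgals2 and Lgals4.

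Lgals9 and Lgals3bp are known as interferon-inducible genes, so 12 genes of the interferon response are given beside them. Of these 8 were detected, beside 33.8% of all symbols. They were led by the transcription factor Irf1 (74.7 ± 1.74 CPM), the tetherin gene Bst2 (32.4 ± 1.31 CPM) and Ifit2 (29.6 ± 4.33 CPM). The list summed to 178 (C1), 195 (C2) and 182 CPM (C3). Of the 11 that could be tested, 7 were highest in C2, beside 4567 of all 13026 genes tested. Lgals9, Lgals3bp and Lgals8 were highest in C2 too, but only for Lgals9 did the C2 interval lie above those of the other libraries. Of the 11, 3 (Ifit2, Ifit1 and Irf7) varied beyond counting noise, beside 39.3% of all genes tested, with Ifit2 at 29.1, 34.1 and 25.5 CPM and Ifit1 at 1.078, 2.64 and 1.89 CPM, both highest in C2, and Irf7 at 0.624, 0.985 and 1.51 CPM, highest in C3. None of the 11 passed the edgeR test, beside 0.0691% of all genes tested. The median deviation of the list from each gene's mean was -0.07 in C1, 0.07 in C2 and 0.01 in C3 on the log2 scale, beside 0.0004, 0.0012 and -0.0043 over all genes tested, while Lgals9 lay 0.26 above its mean in C2. Whether the interferon response had a part in the Lgals9 value was not tested.

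The enzymes that build galectin ligands were mostly expressed. N-acetylglucosaminyltransferases of the Mgat family add the branches of N-glycans on which galactose is placed. Of 10 genes of ligand synthesis, 9 reached 1 CPM in every library, beside 33.8% of all symbols. The highest were the branching enzyme gene Mgat4b (165 ± 7.82 CPM), Mgat2 (77.5 ± 1.37 CPM), the galactosyltransferase gene B4galt1 (66.3 ± 3.37 CPM) and Mgat1 (53.9 ± 2.43 CPM). Mgat5, which makes the branch preferred by galectin-3 and was named after its values were seen, stood at 18.9, 19.3 and 20.9 CPM. B3gnt2, which extends poly-N-acetyllactosamine chains, was the exception (0.794, 0.880 and 1.35 CPM). Of the 10, 4 (Mgat4a, Mgat4b, Mgat1 and B4galt1) varied beyond counting noise, a share near the 39.3% of all genes tested. None of the 10 passed the edgeR test, beside 0.0691% of all genes tested. Their median was 9.24 CPM per kilobase, beside 8.31 over the detected genes that had a length.

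Sialyltransferases cap galactose, and alpha-2,6-linked sialic acid, the product of St6gal1, blocks the binding of galectin-1. All 6 on the list reached 1 CPM in every library, beside 33.8% of all symbols. St3gal4 stood at 77.9 ± 3.69 CPM, St3gal2 at 66.8 ± 3.43 CPM, St6gal1 at 33.3 ± 1.52 CPM and St3gal1 at 33.0 ± 2.26 CPM (SD, n = 3). These 4 of the 6 varied beyond counting noise, beside 39.3% of all genes tested. None of the 6 passed the edgeR test, beside 0.0691% of all genes tested. The list's median was 5.80 CPM per kilobase.

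Of 20 glycoproteins known as galectin partners 18 reached 1 CPM in every library, beside 33.8% of all symbols. Of the 20, 12 exceeded 100 CPM, beside 2467 of all 34591 symbols. Fibronectin, Fn1 (1734 ± 188 CPM), the integrin chain Itgb1 (1208 ± 69.2 CPM), P4hb, a disulfide isomerase that binds galectin-9 at the cell surface (642 ± 53.7 CPM), and the laminin chain Lama5 (505 ± 12.4 CPM) were highest. Pdpn (0.0240 CPM on average), which binds galectin-8, and the mucin gene Muc1 (0.117 CPM) were below 1 CPM. Havcr2, the gene of the galectin-9 receptor Tim-3, was detected at 3.97, 2.98 and 4.60 CPM, lowest in C2 where Lgals9 was highest. Of the 18 tested, 14 varied beyond counting noise, beside 39.3% of all genes tested, and 12 were highest in C3, beside 4434 of all 13026 genes. None of the 18 passed the edgeR test, beside 0.0691% of all genes tested. The median level was 171 CPM, beside 35.9 CPM over the detected genes, and the test against counting noise gains power with counts. The list's median was 22.7 CPM per kilobase.

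In the response to damaged vesicles, galectin-3 and galectin-8 mark exposed glycans. Of its 11 listed genes in the table, 10 reached 1 CPM in every library, beside 33.8% of all symbols. Pdcd6ip (Alix), which binds galectin-3, stood at 425.9 ± 2.51 CPM, the autophagy receptor Sqstm1 at 285 ± 21.4 CPM, Becn1 at 112 ± 3.47 CPM and the ESCRT subunit Chmp4b at 99.4 ± 1.86 CPM (SD, n = 3). Calcoco2, the autophagy receptor that binds galectin-8 in human cells, was the exception at 0.0826 CPM on average. Of the 10 tested 3 (Sqstm1, Becn1 and Atg16l1) varied beyond counting noise, beside 39.3% of all genes tested. None of the 10 passed the edgeR test, beside 0.0691% of all genes tested.

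**Figure D4:**
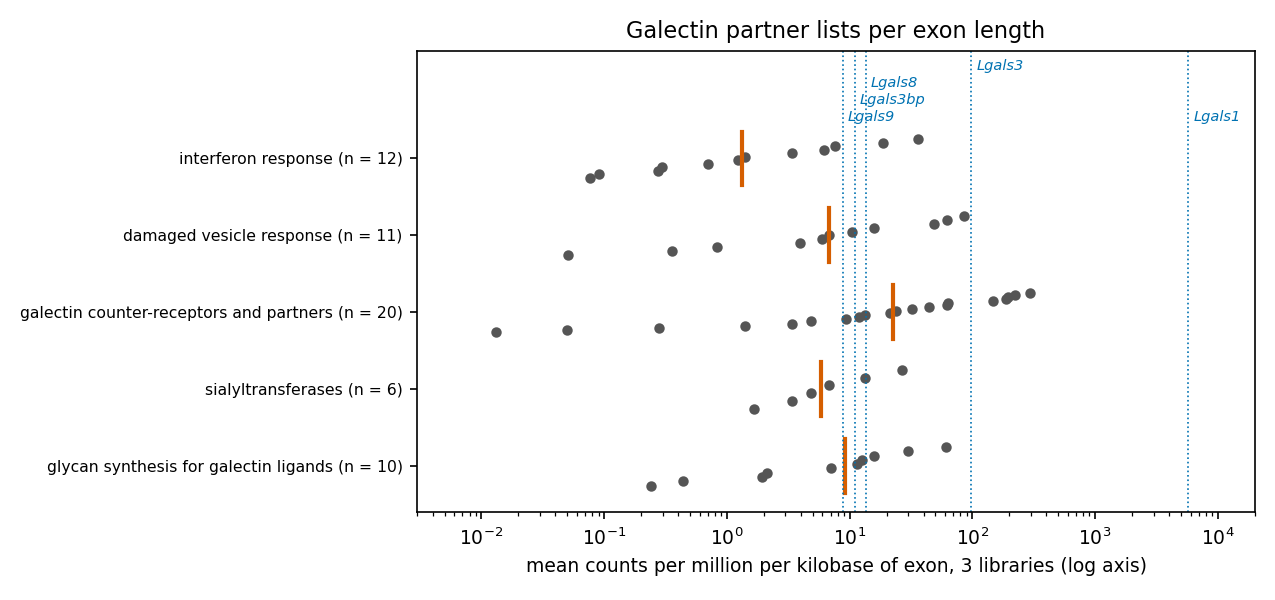
Mean level over the 3 libraries of the genes of each partner list, in CPM per kilobase of exon on a log axis; dots are genes, orange bars are list medians, dotted lines are the 5 expressed members. Lgals1 at 5754 lay to the right of every gene of these lists, of which Itgb1 was the highest at 296.

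Of the other galectin-fold genes, the galectin-like gene Lgalsl, listed in the table under its older symbol 1110067D22Rik, stood at 66.0, 67.7 and 61.6 CPM (65.1 ± 3.13 CPM, SD, n = 3), lowest in C3 as Lgals8 was. Per exon length it exceeded Lgals8 by 0.23 ± 0.03 on the log2 scale (1.17-fold). The lens gene Grifin had 0 counts, and Lgals6 was not analysed here.

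The gene nearest to each expressed member in log2 CPM over the 3 libraries, out of 11699 candidates, was Hsp90ab1 for Lgals1 (root mean square difference 0.17), Smurf2 for Lgals3 (0.024), Sc5d for Lgals8 (0.016), Anubl1 for Lgals9 (0.096) and Nedd4l for Lgals3bp (0.013). These pairs are a description only. Lgals1 and Lgals9 had no neighbour as near as the other 3 members had. The distance depends also on how many genes lie at a level, and only 2 genes had a higher mean CPM than Lgals1.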

How the data were processed

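Per the labels' protocols, RNA of total cell lysates was made into strand-preserving poly(A) libraries. The deposited values are raw counts per gene symbol; the submitters' processing notes name CASAVA 1.7, BWA, STAR and HTSeq and the build mm9, with no role or order. Annotation and strand setting were not given in the sources used here. Column names show the series' table but no single sample, and stand for the group of 3 as a whole.

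CPM used column totals. Exact 95% binomial (Clopper-Pearson) intervals and a limit of 3 counts for a count of 0 were computed with scipy 1.17.1. Lengths came from GENCODE M21 (GRCm38), matched by symbol or older symbol for 31490 of 34591 symbols and 11545 of the 11700 genes at 1 CPM or more; 0.5 counts were added in ratios. Spread was tested on the 13026 genes passing filterByExpr, with TMM scaling and an intercept-only model, in edgeR 4.0.16 (R 4.3.3), by a chi-square test of Poisson dispersion (2 df) and by an F test of the quasi-likelihood dispersion against its trend, each with Benjamini-Hochberg adjustment at 0.05. The tests were tested on simulated data. There the edgeR test recovered 61.5% of genes changed 1.5-fold in 1 library, so a gene it does not call may still vary. Alternatives covered scaling (DESeq2 1.42.0 size factors, TMM, column totals), filters, length, added counts, a robust prior and each library left out.

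The members and the 11 lists (92 of 96 entries in the table) were chosen with earlier results of these data known. The genes named are the members, the 4 highest and up to 3 members at 0 of each list, the nearest gene to each expressed member and Wisp2; genes called in counts of 5 or fewer, Mgat5, B3gnt2, Pdpn, Muc1, Havcr2, Calcoco2, Eef1a1, Adipoq, Fabp4, Vil1, Krt20 and the neighbours on chromosome 15 were named after their values were seen. A gene that this rule names is not reported here.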

Additional observations from a re-analysis of the deposited data

How the results depend on the processing

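Under TMM and DESeq2 scaling each member's mean level stayed within 1 SD of the value given, and 5 members reached 1 CPM in every library, as with each library left out. Without C1 the mean of Lgals2 was 0.148 CPM, against 0.231 CPM. The share of Lgals1 among the galectins was 97.6% with the longest transcript as length, against 97.9%. Without length division the log2 ratio of Lgals7 to Lgals4 turned to -0.29. The number of members varying beyond counting noise was 4 under every scaling and filter tried, and 1 to 4 with a library left out. The smallest number came without C3, where 1667 of all 12970 genes were called, against 5118 of 13026 with all libraries. No member passed the edgeR test under any alternative run, the robust prior included. Of 8 neighbouring pairs, between 5 and 7 lay beyond the spread under the alternatives. C1 had the fewest counts and limits Lgals2, Lgals4, Lgals7 and Lgals12, with at most 10 counts in a library. No paired analysis was possible because there is 1 group.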
